A study of Macaca mulatta with 17 samples.

Results

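The genes described here are the core of the Hedgehog pathway, 9 genes that comprise the ligands IHH, SHH and DHH, the receptors and membrane proteins PTCH1, SMO and HHIP, and the transcription factors GLI1, GLI2 and GLI3. They were chosen by symbol or older symbol in the array's probe descriptions, with 1 probe per gene, and 8 of the 9 had a probe (PTCH1 is listed there as PTCH and GLI1 as GLI). GLI2 was matched by no probe and was not analysed here. The 8 probes are part of 20217 on the array, which together name 16450 genes.

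RNA came from the uteri of female rhesus macaque fetuses, with 1 animal per Cy3-labeled, single-color Agilent array and 17 arrays in 4 groups. The dams ate a daily fruit treat with 400 µg/kg of deuterated bisphenol A (dBPA, here BPA) or with the ethanol vehicle alone. At gestational day (GD) 100 there were 5 control and 5 BPA-exposed fetuses, dosed from GD50 and delivered by caesarean section. At full term (GD165 to GD168, here GD165) there were 4 control and 3 BPA-exposed fetuses, dosed from GD100 and delivered vaginally, with stillborn fetuses left out. Age therefore cannot be told apart from the mode of delivery, and the BPA-exposed groups differ from each other in the window of dosing as well as in age. RNA was taken from one side of each uterus, cut lengthwise from the fundus to the cervix.

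Hedgehog ligands are secreted proteins that bind Patched receptors on neighboring cells. Without ligand, PTCH1 keeps SMO inactive and GLI3 is processed to a repressor. With ligand, SMO moves into the primary cilium and GLI proteins activate target genes, among them PTCH1, HHIP and GLI1 themselves, so that the levels of these 3 transcripts are commonly read as a measure of pathway activity. In the uterus the ligand best known is IHH, made by the epithelium under the control of progesterone and received by the stroma beneath it, where NR2F2 is a known downstream gene.

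The calls among the pathway genes were between ages and not between BPA and control. GLI3, the member of the GLI family that acts mainly as a repressor, fell between GD100 and GD165 in control animals and again, in a separate set of arrays, in BPA-exposed animals. Both tests took their spread from the same fit. PTCH1 was higher at GD165. In the main fit its rise passed the threshold only when the age effect was averaged over both treatments, a comparison added after the data were seen. That call was lost when any single GD165 BPA array was left out. HHIP was not well above background on the GD100 arrays and was measurable in 4 of 7 animals at GD165, with a call that depended on single animals. No member passed the test for an effect of BPA at either age.

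Because the ligands are close relatives, the probes that stood for them were compared. The sequences for IHH and SHH, as the array files give them, are shown from 5′ to 3′ with the stretch that aligns best between them, without gaps, in capitals:
IHH: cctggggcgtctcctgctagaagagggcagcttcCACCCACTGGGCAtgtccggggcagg
SHH: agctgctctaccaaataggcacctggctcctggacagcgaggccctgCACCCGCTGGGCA
Of the 60 bases of each probe, 13 lie in this best stretch and 12 of these match. The longest identical run was 7 bases between IHH and SHH, 7 between IHH and DHH and 6 between SHH and DHH, so the ligand probes share only short stretches. The probes were compared with each other only, and binding to the transcripts of the other ligands was not tested. How strongly a probe binds its transcript differs between probes, and the level of one gene is therefore not set against that of another.

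Levels are log2 processed signals, averaged over the 2 spots of a probe and scaled so that the 75th percentile of every array lies at 12.62. On each array 83.8 to 89.0% of spots were well above background. Of the 8 members, 7 were well above background on all 17 arrays, and HHIP on 4. Groups were compared with limma fitted to all 17 arrays, and a gene was called at a Benjamini-Hochberg adjusted p under 0.01 over all 20217 probes. Each array is a different animal, so the spread between arrays is the spread between fetuses, and precision is limited by the number of arrays.

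Marker genes were read on the same arrays. Of 16 genes of uterine and Müllerian identity, 15 were well above background on all arrays, and the exception was PGR, the progesterone receptor, which reached that mark on 0 of the 17. The paper found the receptor protein by staining in a minority of nuclei, so the dim probe does not show that the receptor was absent. A few arrays carried high levels of markers of skeletal muscle, squamous epithelium or ovary. The mean log2 level of 13 skeletal muscle genes was 11.96 in GD165 control replicate 5 and 11.50 in GD165 BPA replicate 5, against 6.43 to 9.62 in the other arrays. The mean of 17 squamous epithelium genes was 10.91 in GD165 control replicate 6, against 7.86 to 8.99 elsewhere, and the mean of 13 ovary genes was 7.16 in GD100 BPA replicate 1, against 4.84 to 6.06 elsewhere. The results below were also computed without these 4 arrays, called marker-rich. CKM and MYL1, of the skeletal muscle list, were well above background on 6 of 7 GD165 arrays and 1 of 10 at GD100. That signal was therefore not confined to the arrays left out.

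**Figure D1:**
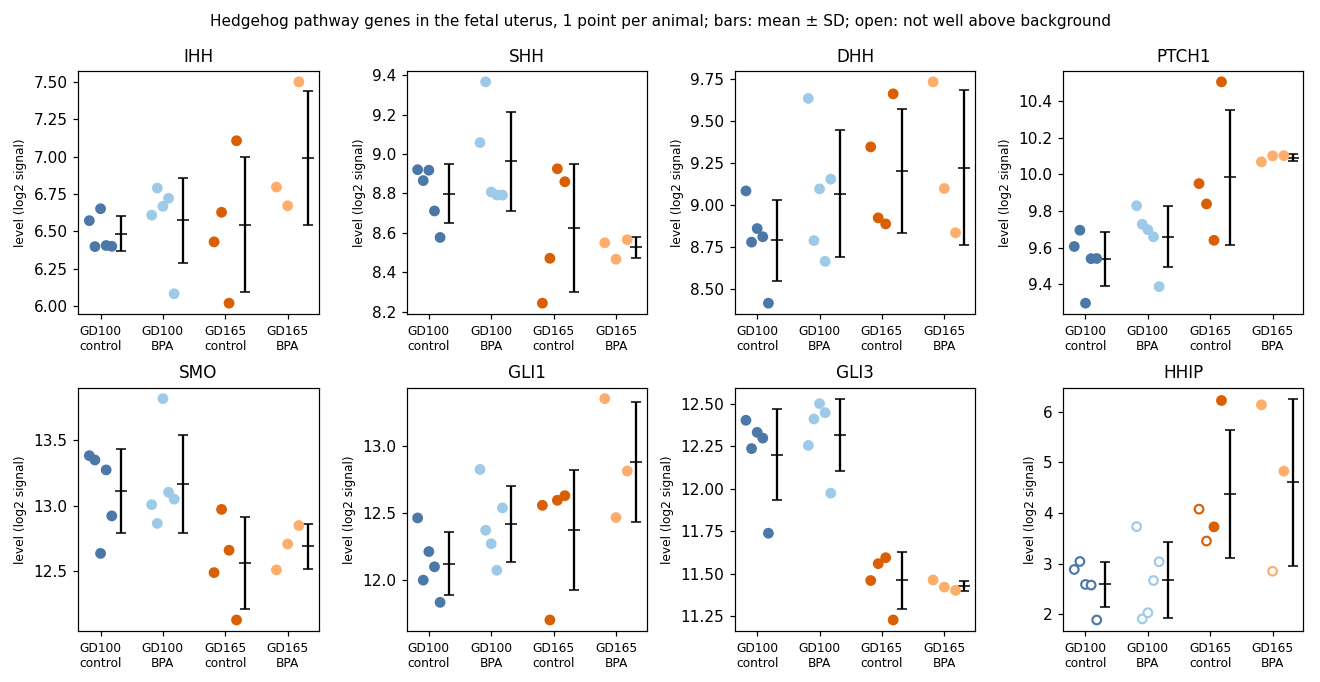
Log2 signal level (vertical axes, separate for each gene) of the 8 Hedgehog pathway genes in the 4 groups, 1 point per animal, with the group mean and SD as bars and open points for arrays on which the probe was not well above background. All 7 GD165 points of GLI3 lie below all 10 GD100 points, PTCH1 is shifted up at GD165, and HHIP has filled points at GD165 only.

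Of the 8 members, 1 was called between the ages in the controls, against 11.5% of all probes. That member was lower at GD165, where 5.2% of probes were called lower, and no member (0 of 8) was called higher, where 6.32% of probes were. In the BPA-exposed animals 1 of 8 was called against 9.68% of probes, and again it was lower (4.86% of probes) while 0 of 8 were higher (4.82%). The count of members called was therefore close to that of all probes, and what follows concerns single genes. Averaging the age effect over treatments in the same fit, a comparison added after the data were seen, used all 7 GD165 and 10 GD100 arrays and called 3 of 8 members, against 22.4% of probes. Of the 3, PTCH1 and HHIP were higher, where 11.3% of probes were called, and GLI3 was lower, where 11.1% were. Over the 7 measured members the median log2 difference between ages was 0.06 in controls and 0.16 in BPA-exposed animals, and over all probes it was 0.00 and −0.05.

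Among the ligands, IHH passed none of these tests between ages. The control levels at GD100 were 6.57, 6.40, 6.65, 6.41 and 6.40, and at GD165 they were 6.43, 6.63, 6.02 and 7.11. In the BPA-exposed animals IHH was at 6.61, 6.79, 6.67, 6.72 and 6.08 at GD100 and at 6.80, 6.67 and 7.50 at GD165. The GD165 arrays spread more widely than the GD100 arrays, and the groups overlapped. The SD was 0.45 in each GD165 group, against 0.12 in GD100 controls and 0.28 in GD100 BPA-exposed animals. The log2 difference between ages was 0.06 ± 0.21 (SE, adjusted p = 0.884) in controls, with a 95% interval of −0.39 to 0.51, and 0.42 ± 0.23 (adjusted p = 0.211) in BPA-exposed animals. The first value turned to −0.13 without GD165 control replicate 6, the array with the high squamous epithelium markers, and the second fell to 0.16 without GD165 BPA replicate 5, an array with high skeletal muscle markers.

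SHH, the ligand best known from limb and neural tube, was lower at GD165 by a margin that did not pass the threshold. In BPA-exposed animals its level was 8.79 to 9.37 at GD100, with a median of 8.81, and 8.55, 8.47 and 8.57 at GD165. These groups did not overlap, but the log2 difference of −0.44 ± 0.16 had an adjusted p of 0.070. In controls the levels of 8.58 to 8.92 at GD100 and of 8.24, 8.47, 8.93 and 8.86 at GD165 overlapped, with a difference of −0.17 ± 0.15 (adjusted p = 0.465). Averaged over treatments the difference was −0.31 ± 0.11 (adjusted p = 0.0445), and SHH was lower at GD165 on each of the 4 slides that held both ages. These within-slide differences mix treatments, and on slide F 1 GD165 control array was set against 2 GD100 BPA arrays.

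DHH, which is made by Sertoli and Schwann cells in other organs, varied more between animals than between groups. It was highest in GD165 BPA replicate 3 (9.74), GD165 control replicate 6 (9.66) and GD100 BPA replicate 1 (9.64), and lowest in GD100 control replicate 5 (8.41). The mean level of 19 nerve and Schwann cell markers was 11.44 and 11.15 in the second and the third of these arrays, the highest of the 17, and 10.25 in the first. Their part in the DHH level was not tested. The log2 difference of DHH between ages was 0.42 ± 0.23 (adjusted p = 0.224) in controls and 0.16 ± 0.25 (adjusted p = 0.708) in BPA-exposed animals.

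PTCH1, the receptor of the ligands and a target of the pathway, was the member that rose most clearly among those measured on every array. Control levels were 9.61, 9.70, 9.30, 9.54 and 9.54 at GD100 and 9.95, 9.84, 9.64 and 10.51 at GD165. The BPA-exposed animals were at 9.83, 9.73, 9.70, 9.66 and 9.39 at GD100 and at 10.07, 10.10 and 10.10 at GD165. The control groups overlapped through GD165 control replicate 5 alone, and the BPA-exposed groups did not overlap. The log2 difference was 0.45 ± 0.14 in controls (adjusted p = 0.0376) and 0.43 ± 0.16 in BPA-exposed animals (adjusted p = 0.064), neither past the threshold. Averaged over treatments it was 0.44 ± 0.11, or 1.36-fold higher at GD165, with a 95% interval of 0.21 to 0.67 and an adjusted p of 0.00484.

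The size of the PTCH1 difference was similar under every alternative for the averaged comparison (0.35 to 0.54), and the call was kept in 13 of 13 other settings. These settings include the deposited table, which holds the same signals, and a threshold of 0.05, and neither could lose a call. The PTCH1 call was lost when any of the 3 GD165 BPA arrays was left out, with adjusted p values of 0.0105, 0.0129 and 0.0125 without replicates 3, 4 and 5. Within slides that held both ages, PTCH1 was higher at GD165 on 4 of 4, by 0.28 to 0.81. Treatments were mixed in these differences. The largest was on slide F, where GD165 control replicate 6 was set against BPA-exposed GD100 arrays. Without the 4 marker-rich arrays the averaged difference was 0.41 (adjusted p = 0.0056). In control animals alone the difference was 0.27 (adjusted p = 0.118) without GD165 control replicate 6.

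SMO, which relays the signal once PTCH1 is bound, was lower at GD165 in both sets of animals, again short of the threshold. The log2 difference was −0.55 ± 0.21 (adjusted p = 0.078) in controls and −0.48 ± 0.23 (adjusted p = 0.153) in BPA-exposed animals. The averaged value was −0.51 ± 0.16 (adjusted p = 0.0183). Levels ran from 12.64 to 13.82 over the 10 GD100 arrays, with a median of 13.08, and from 12.13 to 12.97 over the 7 GD165 arrays, with a median of 12.66. On the slides that held both ages, with treatments mixed, the difference was negative on 3 of 4.

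HHIP, a membrane protein that binds and sequesters the ligands and is itself a target gene, was at background level throughout GD100, with 0 of 10 arrays well above it. At GD165 it was well above background on 2 of 4 control arrays (3.73 and 6.22) and on 2 of 3 BPA arrays (6.14 and 4.83). The other GD165 arrays lay at 4.08 and 3.45 in controls and at 2.85 in the BPA group. The 2 brightest arrays were GD165 control replicate 6 and GD165 BPA replicate 3. The averaged fit gave an adjusted p of 0.00638. No fold is given, since the probe was measured on none of the GD100 arrays and on part of the GD165 arrays. The adjusted p was 0.0595 in controls and 0.059 in BPA-exposed animals, and the averaged call was kept in 7 of the 17 fits that left out 1 animal and in 8 of 12 other settings. The deposited table and the 0.05 threshold, counted among these settings, could not lose it. Of the 4 arrays on which HHIP was measured, 3 are among the marker-rich arrays, and without the 4 marker-rich arrays its adjusted p was 0.0307. The adjusted p was 0.022, the highest of the 17 omissions, without GD165 BPA replicate 3.

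GLI1, whose transcription follows activation of the pathway, passed no test between ages. GD100 control levels were 12.46, 12.00, 12.21, 12.10 and 11.83, and GD165 control levels were 12.55, 11.70, 12.59 and 12.63. In GD165 controls replicate 3 lay far below the other 3 arrays. The log2 difference was 0.25 ± 0.22 (adjusted p = 0.479), or 0.47 (adjusted p = 0.112) without that array. In BPA-exposed animals the levels were 12.82, 12.37, 12.27, 12.07 and 12.54 at GD100 and 13.35, 12.46 and 12.81 at GD165, a difference of 0.46 ± 0.24 (adjusted p = 0.187).

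GLI3 was the member with the clearest change. In controls its level was 12.40, 12.24, 12.33, 12.30 and 11.74 at GD100 and 11.46, 11.56, 11.59 and 11.23 at GD165. In BPA-exposed animals it was 12.25, 12.41, 12.50, 12.45 and 11.97 at GD100 and 11.46, 11.42 and 11.40 at GD165. All 7 GD165 arrays lay below all 10 GD100 arrays. The log2 difference was −0.74 ± 0.14 in controls, 1.67-fold lower, with a 95% interval of −1.03 to −0.45 and an adjusted p of 0.00142. In BPA-exposed animals it was −0.89 ± 0.15, 1.85-fold lower, with an interval of −1.21 to −0.57 and an adjusted p of 0.000965. These comparisons share no array. The averaged difference was −0.82 ± 0.10, 1.76-fold lower (adjusted p = 2.4e-05).

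Of the 7 measured members, GLI3 had control groups that did not overlap between ages (1 of 7), against 19.4% of all probes. In the BPA-exposed animals these were 4 of 7 (SHH, PTCH1, SMO and GLI3), against 27.2% of probes. Over all 17 arrays only GLI3 among the 7 had ages that did not overlap, against 9.48% of probes.

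The GLI3 call in controls was kept with each animal left out in turn (adjusted p of 0.000213 to 0.00685), and so was that in BPA-exposed animals (0.000641 to 0.00571). In controls the adjusted p rose to 0.0119 in a fit of the 2 groups alone, 0.012 with slide as a fixed block and 0.031 without the 4 marker-rich arrays, and in BPA-exposed animals to 0.0361 with the slide block and 0.0113 without those arrays. The averaged GLI3 call held in all 13 other settings and all 17 omissions, with log2 differences of −0.87 to −0.71. The deposited table and the 0.05 threshold, counted among these settings, could not lose it. Within the 4 slides that held both ages, GLI3 was lower at GD165 by 0.70, 0.73, 0.29 and 1.20 on slides B, C, E and F. Treatments were mixed in these differences, and the largest set GD165 control replicate 6 against BPA-exposed GD100 arrays. The smallest of these, on slide E, was measured against a single GD100 array, control replicate 5, which had the lowest GLI3 level at GD100.

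**Figure D2:**
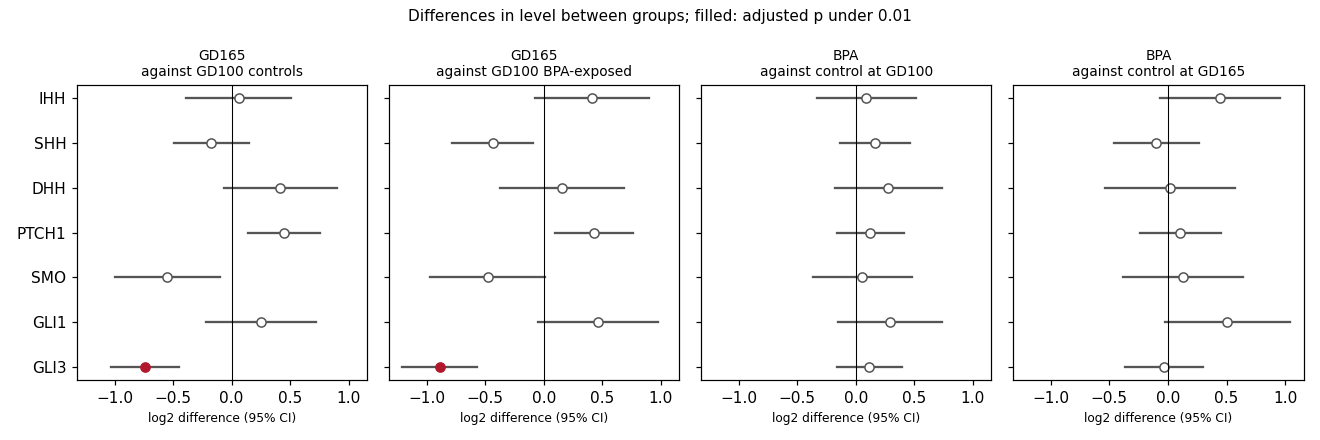
Log2 difference in level (horizontal axis) with its 95% confidence interval for the 7 members measured on all arrays, in the 2 comparisons of age and the 2 comparisons of BPA with control. Filled points mark an adjusted p under 0.01, which GLI3 alone reached, at −0.74 in controls and −0.89 in BPA-exposed animals, and the intervals of both BPA comparisons all include 0.

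Marker lists differed between ages on the same arrays. Among all probes, 6.32% were called higher and 5.2% lower in controls. The mean level of 19 cell cycle genes was 12.06 to 12.26 at GD100 and 10.79 to 11.46 at GD165, and all 19 were called lower in controls. The mean of 14 smooth muscle genes rose from 13.72 to 14.23 at GD100 to 14.38 to 15.01 at GD165, with 6 of 14 called higher in controls and none (0) lower. For 16 epithelium genes the means were 10.42 to 11.02 and 10.95 to 11.66, with 10 of 16 called higher in controls. For 14 stroma genes they were 13.75 to 14.22 and 13.71 to 14.29, with 1 of 14 called higher and 2 lower in controls. For 13 endothelium genes they were 11.80 to 12.21 and 12.20 to 12.85 (1 of 13 called higher), for 14 leukocyte genes 9.15 to 9.83 and 9.85 to 10.55 (2 of 14 called higher), and for 13 skeletal muscle genes 6.43 to 8.54 and 7.29 to 11.96 (4 of 13 called higher), each with 0 called lower in controls. In whole tissue, fewer cells of a type and less RNA per cell cannot be told apart, and the part of these differences in the levels of GLI3, PTCH1 and HHIP was not tested.

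**Figure D3:**
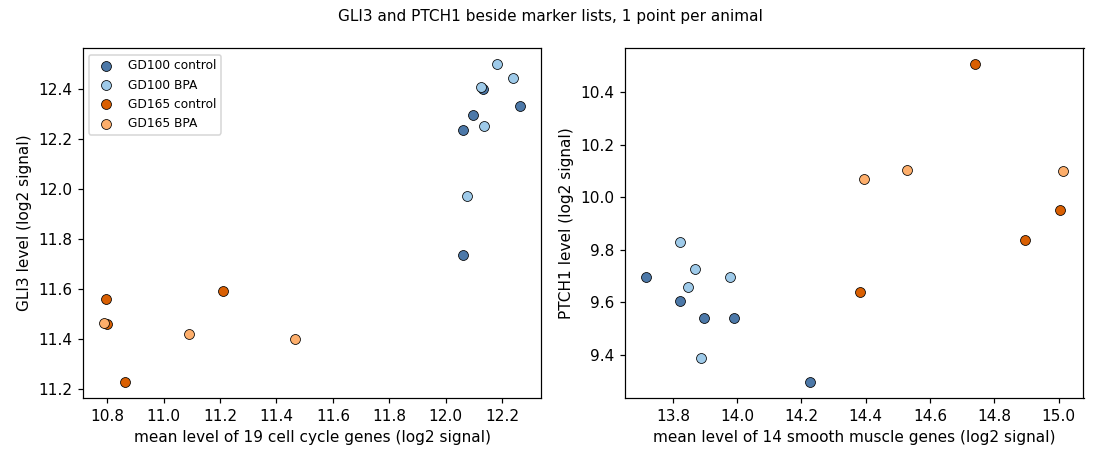
Log2 level of GLI3 against the mean log2 level of 19 cell cycle genes (left) and of PTCH1 against the mean of 14 smooth muscle genes (right), 1 point per animal, colored by group. The ages form separate clusters on the left, with GD165 animals at 10.79 to 11.46 for the cell cycle genes and 11.23 to 11.59 for GLI3.

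BPA and control were compared by the same model. By an error-weighted ANOVA the paper reported minimal differences at GD100 and significant ones at GD165, with RT-PCR of several GD165 genes. That ANOVA was not repeated here. The lack of calls below rests on another test and few animals, and does not show that BPA had no effect. At GD100 no member (0 of 8) was called, as for all probes (0%), with 767 of 20217 at an unadjusted p under 0.05. All 7 measured members had a positive difference, as had 53.3% of all probes. The members were read on the same arrays and are not independent. Their differences ran from 0.06 for SMO to 0.29 for GLI1, with a median of 0.12 where that of all probes was 0.01. Every interval included 0, and the widest among the 7, that of DHH, ran from −0.18 to 0.74. No member had BPA and control arrays that did not overlap (0 of 8, against 0.782% of probes). The GLI1 difference of 0.29 ± 0.21 had an interval of −0.15 to 0.74. On the 3 slides that held both groups, GLI1 differed by −0.01, 0.54 and 0.61 and IHH by 0.18, −0.32 and −0.04.

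At GD165 no member (0 of 8) was called either, as for all probes (0%), with 1740 probes at an unadjusted p under 0.05, and again none (0 of 8) had groups without overlap, against 7.31% of probes. The differences with the smallest p values were those of GLI1 and IHH. GLI1 was 0.51 ± 0.25 higher with BPA (limma adjusted p = 0.592, interval −0.03 to 1.04), and IHH was 0.44 ± 0.24 higher (adjusted p = 0.625, interval −0.07 to 0.95). The GLI1 value was 0.27 without GD165 BPA replicate 3 and 0.28 without GD165 control replicate 3. That of IHH was 0.19 without GD165 BPA replicate 5 and 0.27 without GD165 control replicate 5. On slide E, the only one with both GD165 groups, GLI1 was 0.35 and IHH 0.30 higher with BPA, from 2 BPA arrays and 1 control array. The other 5 measured members differed by −0.10 to 0.13.

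The difference between the BPA effects at the 2 ages was called for 0 of 8 members and for 0% of probes, with 1584 probes at an unadjusted p under 0.05. It was 0.36 ± 0.31 for IHH (adjusted p = 0.827) and 0.21 ± 0.33 for GLI1 (adjusted p = 0.922). Their intervals ran from −0.31 to 1.02 and from −0.48 to 0.91.

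The other genes of the pathway were read from 6 lists with 112 genes, of which 106 had a probe and 98 were well above background on all arrays. In controls 10 of the 106 were called higher at GD165 and 9 lower, together 19, beside 11.5% of all probes (6.32% higher and 5.2% lower). In BPA-exposed animals these were 7 and 5, together 12, beside 9.68% of all probes (4.82% higher and 4.86% lower). The same shares stand beside the counts of each list below. The median log2 difference was 0.03 and 0.01. At GD100 and at GD165, 0 of the 106 were called for BPA.

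Of the 9 genes that release or carry the ligands, SCUBE2 and SCUBE3, which help release lipid-bearing ligand from the cell, moved in opposite directions in controls. SCUBE2 rose by 0.72 ± 0.17 (adjusted p = 0.00696), and SCUBE3 fell by 0.84 ± 0.19 (adjusted p = 0.00599). In the BPA-exposed animals the list had no call (0 of 9), with SCUBE2 at 0.19 ± 0.18 (adjusted p = 0.496) and SCUBE3 at −0.85 ± 0.21 (adjusted p = 0.0106). Averaged over treatments SCUBE3 fell by 0.84 ± 0.14 (adjusted p = 0.000328). The other 7 genes of the list, among them the ligand acyltransferase and the exporters, were not called in either set.

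Of the 16 co-receptors and membrane regulators, 2 were called lower in controls and 2 in BPA-exposed animals, and 0 were called higher. In controls these were GPC3, a glypican that binds Hedgehog ligand and competes with PTCH1, at −1.08 ± 0.18 (adjusted p = 0.000728), and BOC, a co-receptor, at −0.43 ± 0.10 (adjusted p = 0.0049). GPC3 in BPA-exposed animals was at −0.74 ± 0.20 (adjusted p = 0.0168). The genes called in BPA-exposed animals were DHCR7, the last enzyme of cholesterol synthesis, at −1.72 ± 0.27 (adjusted p = 0.000565), and GPC5 at −1.37 ± 0.25 (adjusted p = 0.00188). BOC was at −0.16 ± 0.10 (adjusted p = 0.298) in those animals. In controls DHCR7 was at −0.94 ± 0.25 (adjusted p = 0.013) and GPC5 at −0.86 ± 0.23 (adjusted p = 0.0161). All 4 had the same sign in both sets. The test of the difference between the sets is the same contrast as the difference of the BPA effects. It called 0 of the 106 pathway genes, but also 0% of all probes, so it cannot show that the sets were alike. The remaining co-receptors, CDON and GAS1, were not called. CDON was at −0.12 ± 0.13 (adjusted p = 0.579) in controls and at −0.38 ± 0.15 (adjusted p = 0.081) in BPA-exposed animals, and GAS1 was at 0.22 ± 0.20 (adjusted p = 0.50) and 0.35 ± 0.22 (adjusted p = 0.284).

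Of the 20 measured genes of ciliary transport, 1 was called in controls, IFT80, a subunit of the intraflagellar transport complex, which fell by 0.41 ± 0.07 (adjusted p = 0.000864), and 0 in BPA-exposed animals. KIF7, the kinesin that regulates GLI proteins at the tip of the cilium, was at −0.27 ± 0.10 (adjusted p = 0.0697) and −0.12 ± 0.11 (adjusted p = 0.483). All 20 were well above background on every array, with differences in controls of −0.41 to 0.35.

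Of the 22 GLI regulators, 0 were called in controls and 1 in BPA-exposed animals, the kinase CSNK1E, which rose by 0.52 ± 0.12 (adjusted p = 0.00677). SUFU, which holds GLI proteins in the cytoplasm, lay close to the threshold in both sets, at −0.28 ± 0.07 (adjusted p = 0.0105) and −0.30 ± 0.08 (adjusted p = 0.0144). Its groups did not overlap in either, and averaged over treatments SUFU fell by 0.29 ± 0.05 (adjusted p = 0.000594).

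The 29 genes listed as Hedgehog targets moved both ways. In controls 5 were called higher (6.32% of all probes) and 4 lower (5.2%), and in BPA-exposed animals 2 (4.82%) and 2 (4.86%). FOXM1, a transcription factor of the cell cycle, had the largest fall, −1.36 ± 0.12 in controls (adjusted p = 8.5e-06) and −1.12 ± 0.13 in BPA-exposed animals (adjusted p = 7.92e-05). CCND2 and CCNE1, both cyclins of the G1 phase, fell by 0.81 ± 0.12 (adjusted p = 0.000196) and 0.86 ± 0.16 (adjusted p = 0.00168) in controls, and CCND2 fell by 0.79 ± 0.13 (adjusted p = 0.00065) in BPA-exposed animals. Levels of the cell cycle markers on the same arrays are given above, and their part in these values was not tested.

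Of the targets that rose, HES1, a repressor best known from Notch signaling, was at 0.50 ± 0.09 (adjusted p = 0.00135) in controls and 0.45 ± 0.10 (adjusted p = 0.00555) in BPA-exposed animals. ABCG2, a membrane transporter, was at 0.84 ± 0.14 (adjusted p = 0.000689) and 0.74 ± 0.15 (adjusted p = 0.00366). PTHLH was called in controls on a probe that was well above background on 0 of 17 arrays, so no size is given for it. The 3 targets called in controls and not named here differed by −0.55, 0.68 and 0.82. NR2F2, the stromal target of IHH in the uterus, was at −0.26 ± 0.07 (adjusted p = 0.0221) in controls and −0.18 ± 0.08 (adjusted p = 0.122) in BPA-exposed animals. BMP2 was at −0.47 ± 0.14 (adjusted p = 0.0263) and −0.25 ± 0.15 (adjusted p = 0.258), and BMP4 at 0.91 ± 0.40 (adjusted p = 0.127) and 0.91 ± 0.44 (adjusted p = 0.157).

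Of 10 genes listed as upstream of IHH in the uterus, not each an established regulator of it, 4 were called higher and 1 lower in each set of animals. Of all probes 6.32% were called higher and 5.2% lower in controls, and 4.82% and 4.86% in BPA-exposed animals. FOXA2, a factor of gland epithelium, was well above background on 6 of 10 arrays at GD100 and 7 of 7 at GD165, so that part of its GD100 values are unmeasured and the size of its change is uncertain. Its fitted log2 difference was 2.38 ± 0.41 (adjusted p = 0.000869) in controls and 2.73 ± 0.45 (adjusted p = 0.000834) in BPA-exposed animals. SOX17 rose by 0.65 ± 0.14 (adjusted p = 0.00373) and 0.87 ± 0.15 (adjusted p = 0.00126). FOXO1 rose by 0.93 ± 0.16 (adjusted p = 0.000829) and 0.82 ± 0.17 (adjusted p = 0.00444), and ESR1, the estrogen receptor α, by 0.73 ± 0.16 (adjusted p = 0.00458) and 0.95 ± 0.17 (adjusted p = 0.00174). The paper's staining, of protein and not RNA, found this receptor in a similar share of nuclei at both ages. GATA2 fell by 0.59 ± 0.09 (adjusted p = 0.00026) and 0.43 ± 0.10 (adjusted p = 0.00592). PGR was well above background on 0 of 17 arrays, and no change is given for it.

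**Figure D4:**
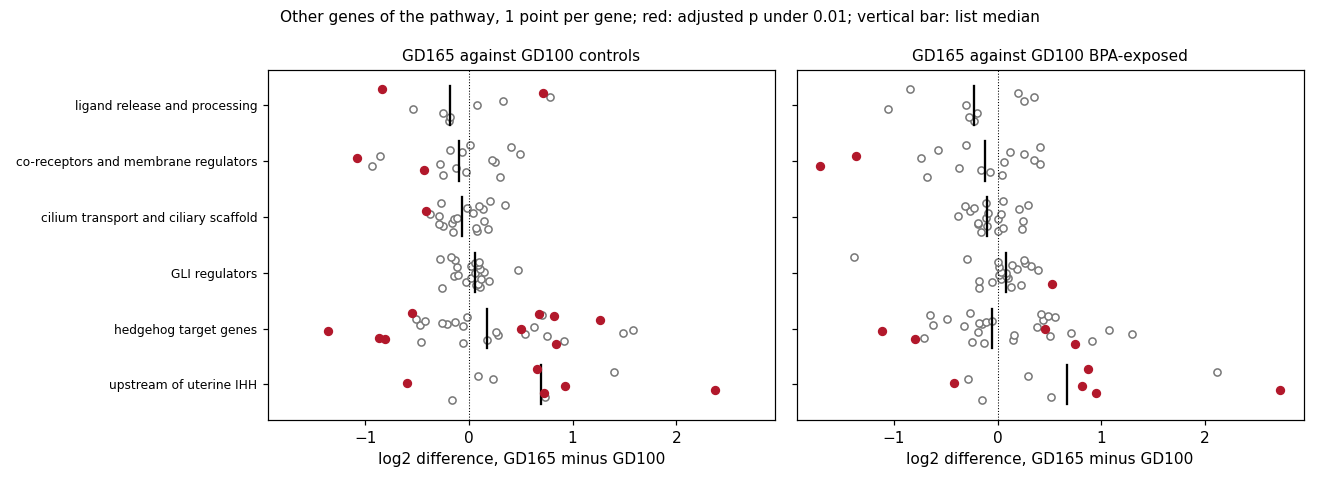
Log2 difference between GD165 and GD100 (horizontal axis) for the genes of 6 pathway lists (vertical axis), in controls (left) and BPA-exposed animals (right), 1 point per gene, red for an adjusted p under 0.01 and a bar at each list's median. The list labeled upstream of IHH has its median at 0.69 and 0.67 and those of the other lists lie between −0.23 and 0.18. The points of PTHLH and PGR come from probes that reached well above background on 0 of 17 arrays.

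Relations between the ligand and the genes it controls were computed within each age, for 5 pairs at each age and 10 in all. Control and BPA-exposed animals were pooled within an age and group means were not removed. A difference between treatments can therefore enter these values, and the permutations exchanged animals across treatments. None (0 of 10) had a permutation p that passed 0.05 after adjustment over the 10. At GD165, IHH and PTCH1 had a Pearson r of 0.72 over 7 animals (exact permutation p = 0.071, adjusted p = 0.355) and a Spearman rho of 0.89 (exact permutation p = 0.0123, adjusted p = 0.0837). Without the 2 arrays farthest from the median of IHH, r was 0.88 over 5 animals. At GD100 the same pair had an r of 0.45 (permutation p = 0.216, adjusted p = 0.541) and a rho of 0.45 (permutation p = 0.194, adjusted p = 0.442) over 10 animals, and r was 0.05 over 8 animals without the 2 farthest.

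IHH and the mean of the 16 epithelium markers ran in opposite directions at GD100, with an r of −0.72 (permutation p = 0.0121, adjusted p = 0.121) and a rho of −0.75 (permutation p = 0.0167, adjusted p = 0.0837), and an r of −0.62 without the 2 farthest arrays. At GD165, r was −0.39 (exact permutation p = 0.396, adjusted p = 0.689) and rho −0.54 (exact permutation p = 0.236, adjusted p = 0.442), and r was 0.07 without the 2 farthest arrays. The other 6 relations, of IHH with GLI1 and NR2F2 and of PTCH1 with GLI1, had Pearson r values of 0.05 to 0.56 (adjusted permutation p of 0.541 to 0.926) and Spearman rho values of 0.12 to 0.57 (adjusted permutation p of 0.442 to 0.760). That of IHH and NR2F2 at GD165, 0.56, was −0.78 without the 2 farthest arrays. Relations of HHIP were not computed because it had no measured level at GD100.

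**Figure D5:**
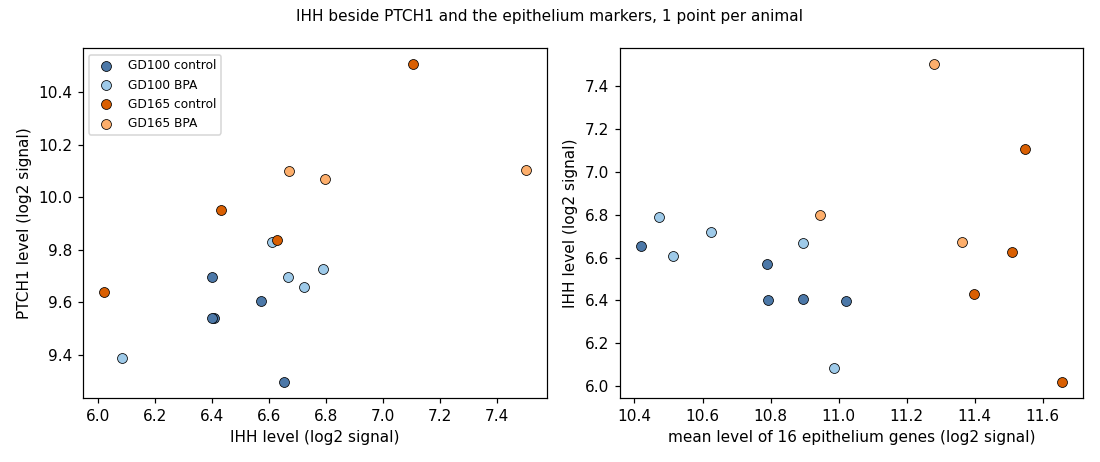
Log2 level of PTCH1 against that of IHH (left) and of IHH against the mean log2 level of 16 epithelium genes (right), 1 point per animal, colored by group. On the left PTCH1 runs from 9.64 to 10.51 at GD165 and from 9.30 to 9.83 at GD100 while IHH overlaps, and on the right the epithelium means of the ages overlap only between 10.95 and 11.02.

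The genes whose level followed each member most closely were sought after subtracting the mean of each group, over 17 arrays and among named probes well above background on all of them, as a description. For GLI3 these were FLJ21865 (r = 0.86), HIST1H3I (0.85) and PCNA (0.84), the last 2 a histone and the clamp of DNA replication. For PTCH1 they were HAS3 (0.91), HOXB13 (0.87) and CMKLR1 (0.86), with r falling to 0.83, 0.75 and 0.81 without GD165 control replicate 6. For GLI1 they were KLF4 (0.87), PTPN7 (0.86) and EXOSC7 (0.85), and for IHH C14orf138 (0.89), FLJ32955 (0.88) and C9orf126 (0.86). DHH was closest to HBEGF (0.87), PLVAP (0.87) and GTPBP1 (0.85), SHH to DRPLA (0.84) and CSF1 (0.84) among others, and SMO to SH3GL1 (0.88), ZFP42 (0.86) and MALT1 (0.85). The points share library, array and scaling, and the highest of 14708 correlations is high by selection.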

How the data were processed

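Each fetus gave 1 uterus and 1 single-color array with Cy3 as the dye. The authors extracted the signals with Agilent Feature Extraction 9.5, per the labels, and deposited the processed signal of each spot as a linear intensity after background subtraction, without scaling between arrays. The deposited table of all arrays equals these signals in 711467 of 711467 values. Here a probe's level is the mean log2 signal of its 2 spots, without the 171 outlier spots, relative to the 75th percentile of its array, plus 12.62, the average percentile. Gene names came from probe descriptions and reference gene tables, for 17969 of 20217 probes. A probe was called well above background where both spots were marked so.

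limma 3.58.1 in R 4.3.3 (lmFit, eBayes) was fitted to all 17 arrays in 4 groups, two-sided, with the Benjamini-Hochberg method over all probes and the adjusted p of 0.01 that the study's methods use. The error-weighted ANOVA of the study was not repeated. The script was tested on simulated data. Permutation tests used scipy 1.17.1 in Python 3.11.15, numpy 2.4.6, pandas 2.3.3, with 100000 resamples at GD100 and exact enumeration at GD165. Slides are lettered A to F. Alternatives were normexp background correction (offset 50), median and quantile scaling, a filter on dim probes (17149 kept), outlier spots kept, the deposited table, only the groups compared, a trend and robust prior, weights from the error estimate, slide and replicate blocks, a threshold of 0.05 and each animal left out. Replicate numbers come from the sample labels and do not name shared dams.

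The members, gene lists and alternatives were chosen with earlier results of these data known. Up to 6 called genes per pathway list were named by smallest adjusted p, and SUFU, NR2F2, BMP2, BMP4, GAS1, CDON, BOC, KIF7 and PGR whatever their values. The averaged age comparison, the within-slide differences and the fit without 4 arrays were added after the data were seen. The genome build of the probe coordinates was not settled, and no coordinates are given. Values of some genes are not reported here.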

Additional observations from a re-analysis of the deposited data

Results flagged for a closer look

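In 21 groups of a member with 4 or 5 arrays, 4 had 1 array far from the others by Dixon's criterion, which chance alone reaches in about 5% of groups. IHH in GD100 BPA replicate 5 was at 6.08 against 6.61 to 6.79 in the other 4 arrays. SMO in GD100 BPA replicate 3 was at 13.82 against 12.86 to 13.10. GLI1 in GD165 control replicate 3 was at 11.70 against 12.55 to 12.63 in the other 3. GLI3 in GD100 control replicate 5 was at 11.74 against 12.24 to 12.40, which is still above all GD165 arrays.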

How the results depend on the processing

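The count of members called in controls, 1, was 0 with only the groups compared, with slide as a fixed block, with the replicate block and without the 4 marker-rich arrays, and 2 at a threshold of 0.05. In BPA-exposed animals it was 0 with slide as a fixed block and without the 4 arrays, and 2 with the replicate block, where PTCH1 was at 0.51 (adjusted p = 0.00913). Averaged over treatments it was 5 at 0.05 and ran from 1 (without GD165 BPA replicate 3 or 5) to 4 (without GD165 control replicate 3) when 1 animal was left out. The averaged HHIP call was kept in 7 of 17 omissions and 8 of 12 other settings, that of PTCH1 in 14 of 17 and 13 of 13, and that of GLI3 in 17 of 17 and 13 of 13. Those settings include the deposited table, which holds the same signals, and the 0.05 threshold, and neither could lose a call. The direction of GLI3, PTCH1 and HHIP between ages was kept under all settings run. Some values that were not called in their comparison changed sign. IHH between ages in controls was −0.083 with quantile normalization and −0.14 with the replicate block, and −0.13 to 0.24 with animals left out. DHH between ages in BPA-exposed animals was −0.10 to 0.35 with animals left out. For BPA at GD100, IHH was −0.12 with slide as a fixed block and SMO −0.11 to 0.13 with animals left out. For BPA at GD165, slide as a fixed block gave 0.22 for SHH, −0.071 for DHH and 0.16 for GLI3, the replicate block 0.0098 for SHH and −0.046 for SMO, omission of the 4 arrays 0.15 for SHH and −0.12 for SMO, normexp −0.013 for DHH and 0.0041 for GLI3, and slide as a random block 0.0036 for GLI3. With animals left out these ran from −0.22 to 0.0025 for SHH, −0.24 to 0.21 for DHH, −0.0074 to 0.28 for PTCH1, −0.018 to 0.26 for SMO and −0.11 to 0.013 for GLI3. The difference of the BPA effects for GLI1 ran from −0.025 to 0.42 with animals left out. At GD100, r of IHH and GLI1 was −0.041 with median scaling and −0.25 with quantile normalization. At GD165, without the 2 farthest arrays, r was −0.78 for IHH and NR2F2 and 0.069 for IHH and epithelium. The causes of these changes were not tested. Over all probes, 2328 calls in controls became 1172 with only the groups compared, 1233 with the slide block, 958 with the replicate block, 1118 without the 4 arrays, 4279 at 0.05, and 1512 to 2271 with animals left out. The 1956 calls in BPA-exposed animals became 1176, 512, 1444, 1110 and 4255 in that order, and 994 to 1535 with animals left out. The 4531 averaged calls became 2980 with the slide block, 3003 without the 4 arrays and 6869 at 0.05. With normexp the median of all probes in BPA-exposed animals was −0.11. Same-numbered animals of different groups had correlations of −0.17 to 0.161 (median 0.027), so the numbers do not pair them. The mean over all probes of a gene could give no other value, since each member has 1 probe, and the dim-probe filter left out HHIP. Precision is limited by 3 to 5 animals per group and by signal over background, in particular for HHIP.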
